A study of Mus musculus with 18 samples.

Results

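The complement genes C1ra, C1s1, C2, C4b, C7, Cfb, Cfp and Serping1 were followed in 18 RNA-seq libraries of synovial fibroblasts sorted from the paws of wild-type mice. These 8 genes were listed by symbol, C3 was set aside, and all 8 were found among the 32285 genes of the count table. Donor mice were naive or had STIA, a serum-transfer arthritis in which K/BxN serum sets off joint inflammation. There were 6 groups of 3 libraries: naive cells left unstimulated, naive cells with 10 ng/mL fibroblast growth factor 2 (FGF2, a fibroblast mitogen), naive cells with osteopontin at 50 ng/mL (OPN, a secreted protein that binds integrins), naive cells with both factors, STIA cells left unstimulated, and STIA cells with 50 ng/mL OPN. Stimulation lasted 3 days. No STIA group received FGF2. Whether the 3 libraries of a group stem from different animals or cultures is not said in the labels; p-values therefore reflect only the spread among these libraries, which may be technical.

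Complement is a cascade of plasma and tissue proteins that tags surfaces, calls in immune cells and can open membranes. The classical route starts when C1q binds an immune complex and the attached proteases C1r and C1s cut C4 and C2, whose fragments form an enzyme that cleaves C3. The alternative route uses factor B (Cfb) for the same purpose and properdin (Cfp) to hold its enzyme together, and both routes lead to a terminal complex that contains C7. Serping1 encodes C1 inhibitor, which blocks C1r and C1s. The liver makes most circulating complement, while fibroblasts and macrophages make part of it locally, and serum-transfer arthritis is known to depend on the alternative route.

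Library totals ran from 27527043 to 40357342 counts, and a floor of 3 counts in a library corresponded to 0.0743 to 0.109 CPM (a count scaled to a common library total). Levels are CPM on normalised library sizes, given as mean ± SD over the 3 libraries of a group; changes are log2 fold changes ± SE, and a gene was called changed at an edgeR adjusted p below 0.05 over 15072 tested genes. Intervals and floors cover counting error only. All 9 fibroblast markers had counts in every library, with at least 3685 CPM of Col1a1 (type I collagen) and 272 CPM of Pdgfrb. These markers moved with FGF2 too: 3 of 9 rose and 4 fell, Col1a1 going from 36960 to 4066 CPM and Pdgfrb from 825 to 298 CPM, and 7 of 9 were higher with both factors than with FGF2 alone. Their part in the results was not tested. FGF2 replicate 2 stood apart in its group, with a chi-square per degree of freedom of 29.38 and 40.73 to the other 2 libraries and 4.42 between those; without it, FGF2 still lowered the same 6 members, while the rise of C2 from FGF2 to both factors lost its call (adjusted p = 0.0584). Replicate 3 with both factors also stood apart in its group, at 21.52 and 25.43, beside 8.11 between the other 2 libraries. Without it, the rise of C2 from FGF2 to both factors lost its call as well (adjusted p = 0.0816). Markers of hepatocytes summed to at most 0.233 CPM in any library. In bulk RNA, fewer cells that make a transcript and less transcript per cell cannot be told apart.

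On GRCm38, C1ra lies at chr6:124512405-124523443 on the plus strand and C1s1 faces it at chr6:124530345-124542359 on the minus strand, with 6901 bases between them. The members C4b, Cfb and C2 share the MHC region of chromosome 17, all on the minus strand: C4b at chr17:34728380-34743882, Cfb at chr17:34856374-34862518 and C2 at chr17:34862604-34898265. Only 85 bases separate Cfb from C2, and 112491 bases separate C4b from Cfb. Serping1 is at chr2:84765387-84775444, C7 at chr15:4988762-5063740 and Cfp at chrX:20925454-20931555, each on the minus strand. All 8 are protein-coding, and each count covers all annotated exons of the gene.

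C4b, C1ra and C1s1 have close copies in the mouse genome, so reads could be shared between relatives. The longest transcripts of C4b and C4a were 96.2% identical over 5366 aligned bases, those of C1ra and C1rb 98.1% and those of C1s1 and C1s2 96.2%. A read of 150 bases taken from C4b would also fit C4a perfectly at 8.26% of positions. The share was 26.3% for C1ra with C1rb and 2.86% for C1s1 with C1s2. With 50 bases the 3 shares were 35.2%, 48.0% and 24.3%. The stretch nearest the middle of the C4 alignment that lies in 1 exon of both genes shows how they are told apart, here bases 2643 to 2762 of C4b (GRCm38 chr17:34735488-34735607, minus strand) and the matching bases of C4a (chr17:34816144-34816263, minus strand), with the 9 differing bases in capitals.
C4b: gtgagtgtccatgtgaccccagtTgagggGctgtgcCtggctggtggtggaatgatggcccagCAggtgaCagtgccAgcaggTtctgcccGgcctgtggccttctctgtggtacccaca
C4a: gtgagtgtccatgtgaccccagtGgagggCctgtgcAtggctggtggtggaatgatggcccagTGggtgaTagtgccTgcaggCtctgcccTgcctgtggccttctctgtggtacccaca
C4a averaged 0.692 to 1.26 CPM over the groups and passed the test in none of the comparisons with unstimulated naive cells. It was called higher with both factors (1.26 CPM) than with OPN alone (0.692 CPM). C1rb and C1s2 averaged at most 0.188 and 0.251 CPM. The sources used here do not say how reads that fit several places were counted, so the 3 members' counts may include or lack a shared part of unknown size.

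RefSeq promoter sequence (GRCm38.p6, the 250 bases before the annotated start) was matched for 4 of the 8 members: C1ra, C1s1, C7 and Cfp. The sequences of C1ra, C1s1 and C7 are shown. The paired proteases C1ra and C1s1 both fell with FGF2, and C7 was detected mainly in 1 group.
C1ra (chr6:124512371-124512620, plus strand): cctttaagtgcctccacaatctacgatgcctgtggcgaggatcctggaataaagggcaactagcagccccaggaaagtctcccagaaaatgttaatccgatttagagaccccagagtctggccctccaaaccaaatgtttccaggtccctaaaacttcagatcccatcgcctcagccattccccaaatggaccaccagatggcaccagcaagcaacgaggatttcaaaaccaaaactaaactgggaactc
C1s1 (chr6:124542360-124542609, minus strand): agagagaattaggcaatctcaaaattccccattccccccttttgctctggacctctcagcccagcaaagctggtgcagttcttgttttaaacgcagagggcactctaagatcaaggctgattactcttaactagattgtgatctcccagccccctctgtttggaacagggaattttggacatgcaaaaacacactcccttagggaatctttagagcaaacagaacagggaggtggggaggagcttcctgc
C7 (chr15:5063774-5064023, minus strand): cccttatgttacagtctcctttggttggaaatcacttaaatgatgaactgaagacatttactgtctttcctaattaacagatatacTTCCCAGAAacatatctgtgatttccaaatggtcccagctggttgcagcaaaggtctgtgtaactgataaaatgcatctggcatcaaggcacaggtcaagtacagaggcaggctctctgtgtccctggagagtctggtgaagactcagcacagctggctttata
The RefSeq start of C1ra lies inside the gene as the count table bounds it. Capitals in C7 mark a match to TTCNNNGAA, the letters of a STAT site, from 164 to 156 bases before the start. Of 32851 RefSeq promoters of this length 7.02% hold these letters on either strand. An interferon-stimulated response element (GAAA and GAAA with 2 bases between them, in 2.98% of promoters), an NF-kappaB site (GGGA and TTCC with 2 bases between them, 1.21%) and an AP-1 site (TGANTCA, 6.75%) were not found in the windows of the 4 matched members on either strand. A match is a run of letters and not a shown binding site.

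FGF2 lowered 6 of the 8 genes in naive cells, C1ra, C1s1, C2, C4b, Cfb and Serping1, and raised none; 28.1% of all tested genes fell with FGF2, 29.1% rose and 57.1% changed. When OPN was given together with FGF2, those 6 genes were called higher than with FGF2 alone, where 27.3% of tested genes were higher, 31.2% lower and 58.4% changed. C7 was called higher as well, but it passed the filter on low counts only through the libraries with both factors, so its call is not counted here and its counts are given apart. Without C7, the members' median log2 change was -1.97 with FGF2 and 2.42 from FGF2 to both factors, beside 0.01 and -0.01 over all tested genes. Unstimulated STIA cells held less of the same 6 transcripts than unstimulated naive cells (18.2% of tested genes lower, 18.6% higher, 36.8% changed), with a median of -1.23 without C7. These comparisons share libraries: FGF2 and STIA were both set against the unstimulated naive cells, and both comparisons with FGF2 use the libraries with FGF2 alone.

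OPN alone lowered Cfb and Serping1 in naive cells and raised no member, where 16.5% of tested genes fell, 15.2% rose and 31.7% changed. With both factors against unstimulated naive cells, C1s1, C4b and C7 were called higher and C1ra, C2 and Cfb lower, a split of 3 and 3 beside 23.7% of tested genes higher, 26.1% lower and 49.8% changed. C7 passed the filter only through this group, so its call adds nothing to the split. The calls of C1s1 and C4b were each lost when any 1 library of these 2 groups was left out and under a replicate block, which left 4 calls. That of Cfb was also lost without unstimulated naive replicate 3 (adjusted p = 0.0611) or replicate 1 with both factors (adjusted p = 0.133), which left 3. Against OPN alone, both factors left C1ra and C2 lower and C7 higher (27.1% of tested genes higher, 29.5% lower, 56.5% changed). The interaction, the change with FGF2 in the presence of OPN minus the change with FGF2 in its absence, was above 0 and passed the test for 6 of 8 members, the same 6 named first; 24.1% of tested genes had a called interaction above 0, 27.2% one below 0 and 51.2% one in either direction. With OPN on both sides, C1ra, C1s1, C4b and Serping1 were lower in STIA than in naive cells (18.9% of tested genes lower, 21.1% higher, 40.0% changed).

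**Figure D1:**
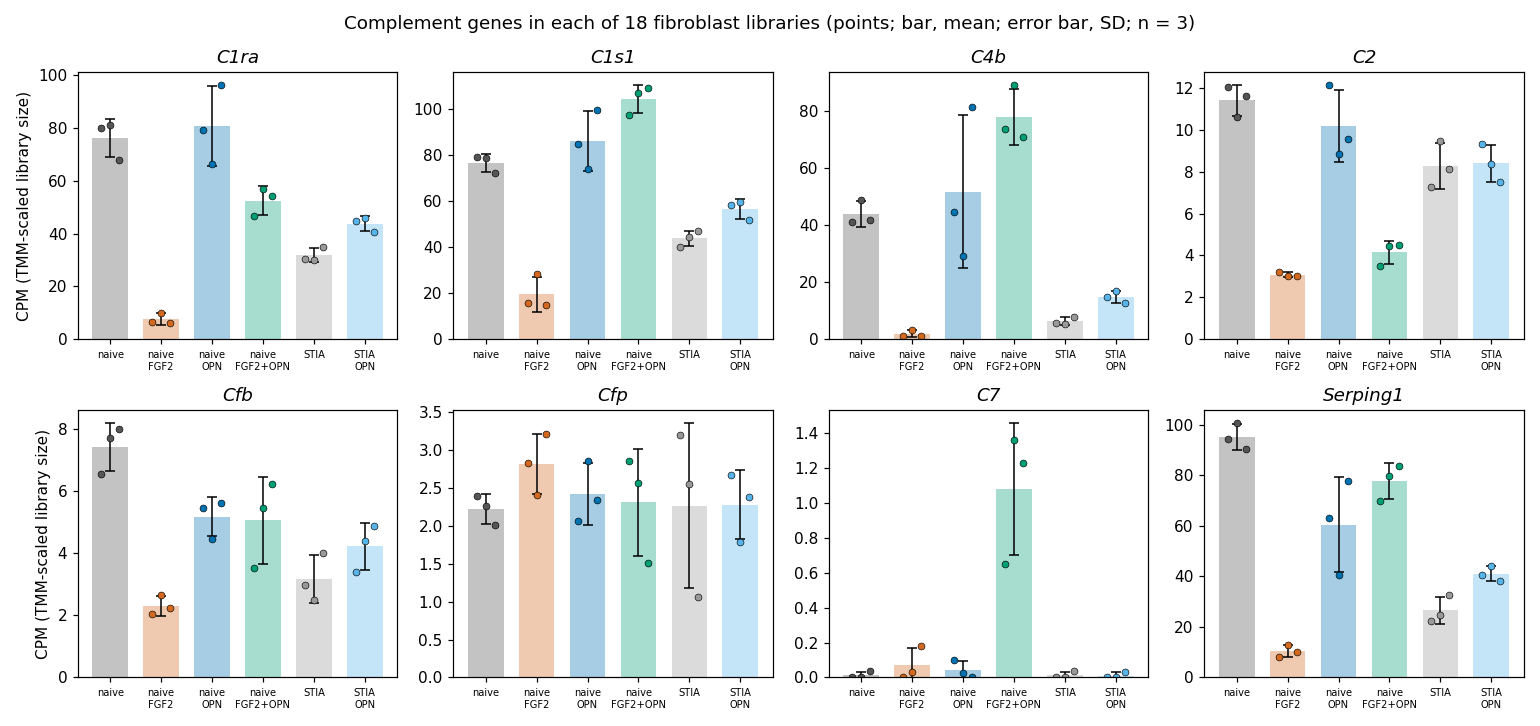
Level of each complement gene in CPM on normalised library sizes (vertical axis, from 0, a scale of its own per gene) in the 6 groups; points are the 3 libraries, bars the mean and error bars the SD. In C1ra, C1s1, C4b, C2, Cfb and Serping1 the bar with FGF2 alone is the lowest of the 6, the Cfp points of all groups lie within 1.07 to 3.21 CPM, and the 3 C7 points with both factors lie above the other 15.

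C1ra encodes C1r, the protease that activates C1s. Its libraries read 79.8, 81.2 and 68.0 CPM in unstimulated naive cells and 6.63, 10.1 and 5.99 CPM with FGF2. All 3 FGF2 libraries lay far below all 3 without it, a log2 change of -3.33 ± 0.17 (10.1-fold lower, adjusted p = 4.66e-11). With OPN alone the level was 80.8 ± 15.1 CPM, a change of 0.08 ± 0.14 from unstimulated cells that did not pass the test (adjusted p = 0.717). With both factors the libraries read 46.5, 56.9 and 54.1 CPM, which was 6.94-fold higher than with FGF2 alone (log2 change 2.79 ± 0.17, adjusted p = 7.42e-10). They still lay under every unstimulated library, a change of -0.54 ± 0.15 (adjusted p = 0.00589). In STIA cells C1ra read 30.5, 30.0 and 34.9 CPM, a change of -1.26 ± 0.15 from naive cells (adjusted p = 1e-05).

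C1s1 encodes C1s, the protease that cuts C4 and C2. The unstimulated naive libraries held 78.9, 78.6 and 72.1 CPM, and those with FGF2 held 15.6, 28.4 and 14.7 CPM, with no overlap and a log2 change of -1.97 ± 0.19 (3.92-fold lower, adjusted p = 4.5e-07). FGF2 replicate 2 was the highest of its group here, and it was also the highest for C1ra, C4b, Cfb and Serping1. With both factors C1s1 reached 97.1, 106.6 and 108.9 CPM, above every unstimulated library and 5.34-fold higher than with FGF2 (log2 change 2.42 ± 0.19, adjusted p = 6.1e-08). The rise over unstimulated cells, 0.45 ± 0.18 (adjusted p = 0.0488), lost its call when any single library was left out, with DESeq2 (adjusted p = 0.061) and under a replicate block (adjusted p = 0.0593). In the exons of C1s1, 18.4% of bases overlap Gm16567 on the opposite strand, which had no count in any of the 18 libraries. The strand setting of the counting is not known, so C1s1 may lack reads from this overlap.

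The levels of both proteases can be set side by side per length, with a limit. Of 150-base reads, 26.3% from C1ra but 2.86% from C1s1 would also fit a relative. How such reads were counted is not known, nor whether C1s1 lacks reads from its overlap with Gm16567, so the difference in level between the genes may be off. Per kilobase of exon, C1ra and C1s1 stood at 25.6 ± 2.44 and 24.4 ± 1.22 CPM in unstimulated naive cells, at 2.54 ± 0.743 and 6.25 ± 2.44 CPM with FGF2, and at 17.6 ± 1.8 and 33.3 ± 2.0 CPM with both factors. With both factors C1ra was below its unstimulated level and C1s1 above it, each beyond the spread between libraries in the model reported. The C1s1 call was lost when any single library of either group was left out.

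C4b, which encodes complement C4, changed by the largest factor of the 6 genes that fell. It read 40.9, 49.0 and 41.8 CPM in unstimulated naive cells and 1.10, 3.24 and 1.27 CPM with FGF2, a log2 change of -4.56 ± 0.43 (23.6-fold lower, adjusted p = 8.45e-07). With both factors it read 73.7, 89.2 and 70.8 CPM, 41.8-fold higher than with FGF2 alone (log2 change 5.39 ± 0.43, adjusted p = 1.75e-07). Every library with both factors exceeded every unstimulated one, but the change of 0.83 ± 0.31 (adjusted p = 0.0409) lost its call without any 1 of the 6 libraries, with DESeq2 (adjusted p = 0.0571) and with the replicate block (adjusted p = 0.0538). OPN alone gave libraries far apart, 44.6, 29.0 and 81.4 CPM, which straddle the unstimulated range. Its change of 0.23 ± 0.31 (adjusted p = 0.617) turned to -0.25 without OPN replicate 3. That library was the highest of its group for 5 of the 7 members other than C7, and OPN replicate 2 was the lowest for 6.

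C2 encodes the protease that joins the C4 fragment in the classical enzyme. Unstimulated naive libraries held 12.1, 10.6 and 11.6 CPM and FGF2 libraries 3.23, 3.01 and 3.03 CPM, a log2 change of -1.89 ± 0.14 (3.69-fold lower, adjusted p = 1.1e-10). When OPN was added to FGF2, C2 stayed low: 3.52, 4.45 and 4.48 CPM, 1.34-fold higher than with FGF2 (log2 change 0.42 ± 0.15, adjusted p = 0.0238) and far below unstimulated cells (log2 change -1.47 ± 0.14, adjusted p = 1.22e-08). The small rise lost its call with limma-voom (adjusted p = 0.0781) and without 1 of 4 libraries. OPN alone left C2 at 10.2 ± 1.72 CPM, a change of -0.16 ± 0.13 that did not pass the test (adjusted p = 0.355). The products of C4b and C2 work in the same enzyme. With both factors C4b was called above and C2 below its own unstimulated level. The C4b call was lost when any single library of either group was left out. Of the exon bases of C2, 4.16% overlap Zbtb12 on the opposite strand, which ran between 6.73 and 11.2 CPM in group means.

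Cfb encodes factor B, the protease of the alternative route. The unstimulated naive libraries read 6.56, 7.72 and 8.02 CPM and those with FGF2 read 2.03, 2.64 and 2.24 CPM, a log2 change of -1.69 ± 0.20 (3.22-fold lower, adjusted p = 2.25e-07). With both factors the level was 3.52, 5.45 and 6.22 CPM, all above the FGF2 libraries (log2 change 1.12 ± 0.21, 2.18-fold, adjusted p = 7.71e-05) and all below the unstimulated ones (log2 change -0.56 ± 0.19, adjusted p = 0.0161). The latter call was lost without the first library with both factors (adjusted p = 0.133), without unstimulated replicate 3 (adjusted p = 0.0611) and on library totals alone (adjusted p = 0.0563). OPN alone gave 5.45, 4.45 and 5.62 CPM, also below all unstimulated libraries (log2 change -0.52 ± 0.19, adjusted p = 0.0355), a call that 4 of 6 left-out libraries ended.

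Cfp, which encodes properdin, passed no test. Its libraries with FGF2 read 2.83, 2.41 and 3.21 CPM and the unstimulated ones 2.40, 2.27 and 2.01 CPM, which do not overlap (31.4% of tested genes had no overlap in this direction), with a log2 change of 0.34 ± 0.28 (adjusted p = 0.323). Over all 18 libraries Cfp ran from 1.07 to 3.21 CPM, and no pair of neighbours in the order of its 6 group means differed beyond the spread. Properdin is made mainly by myeloid cells, and Cfp was the member with the lowest level per kilobase in unstimulated naive cells after C7, at 1.28 ± 0.112 CPM.

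C7, a component of the terminal complex, was near 0 outside one group. Its raw counts were 0, 0 and 1 in unstimulated naive cells, 0, 1 and 6 with FGF2, 4, 1 and 0 with OPN, 26, 41 and 39 with both factors, and 0, 0 and 1 in each STIA group. All 3 libraries with both factors exceeded the other 15. Over the group sums this was a ratio of 14.5 to FGF2 alone (exact 95% interval 6.82 to 37.1) and of 24.8 to OPN alone (10.3 to 77.9) after scaling to library size, intervals that cover counting error only. The edgeR adjusted p was 3.51e-05 against FGF2 and 1.02e-05 against OPN. C7 passed the filter on low counts only through this group, so its call among tested genes supports nothing beyond the counts themselves. The level remained low, 0.653, 1.36 and 1.23 CPM, and the interaction did not pass the test (adjusted p = 0.56), although limma-voom called it (adjusted p = 0.0361). The other late genes C6, C8a, C8b and C9 averaged at most 0.1 CPM in every group, while C8g averaged 1.04 to 1.93 CPM.

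Serping1, the gene of C1 inhibitor, was the most abundant member per kilobase in unstimulated naive cells, at 41.0 ± 2.22 CPM. It read 94.4, 100.7 and 90.5 CPM there and 8.16, 12.8 and 10.0 CPM with FGF2, with no overlap and a log2 change of -3.20 ± 0.23 (9.21-fold lower, adjusted p = 1.88e-08). With both factors it read 69.7, 79.7 and 83.7 CPM, 7.51-fold higher than with FGF2 (log2 change 2.91 ± 0.23, adjusted p = 7e-08). These libraries lay below all unstimulated ones, yet the change of -0.29 ± 0.20 did not pass the test (adjusted p = 0.236); 27.5% of tested genes had no overlap in that direction. OPN alone gave 63.1, 40.6 and 77.6 CPM, a change of -0.66 ± 0.20 (adjusted p = 0.0217). That call was lost without unstimulated replicate 2 (adjusted p = 0.0705) and when only the 2 groups compared were fitted (adjusted p = 0.124). The inhibitor and its targets C1ra and C1s1 all fell with FGF2 and were all higher with both factors than with FGF2 alone.

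**Figure D2:**
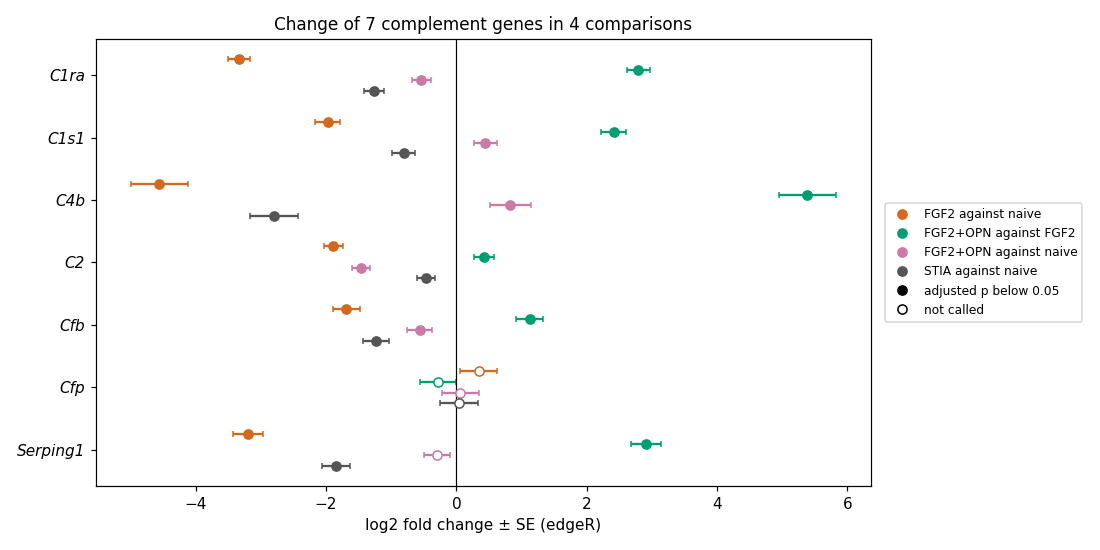
Log2 fold change from the edgeR model (horizontal axis) with its SE for 7 complement genes in 4 comparisons; filled points passed an adjusted p below 0.05 and open points did not. C7 is left out because it passed the low-count filter through 1 group only. C1ra, C1s1, C4b, C2, Cfb and Serping1 lie left of 0 with FGF2 and right of 0 from FGF2 to both factors, while Cfp has open points throughout.

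The interaction gave the size of this non-additivity for each gene. It was 5.16 ± 0.54 for C4b (adjusted p = 3.85e-06), 3.57 ± 0.30 for Serping1 (2.7e-07), 2.71 ± 0.22 for C1ra (5.17e-08) and 2.25 ± 0.26 for C1s1 (5.06e-06) on the log2 scale. For Cfb it was 1.65 ± 0.28 (adjusted p = 3.8e-05) and for C2 0.58 ± 0.20 (adjusted p = 0.019); the latter lost its call without OPN replicate 2 (adjusted p = 0.0544). C3, the protein on which both routes converge, had an interaction of 7.31, with 36.2 ± 3.68 CPM in unstimulated naive cells, 2.27 ± 1.3 with FGF2, 5.44 ± 2.13 with OPN and 52.8 ± 15.8 with both. C3 fell with OPN alone by 2.76 on the log2 scale, whereas C4b, C1ra, C1s1 and C2 passed no test there.

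In unstimulated STIA cells the same 6 genes were lower than in unstimulated naive cells. C4b fell most, from 43.9 ± 4.42 to 5.75, 5.46 and 7.81 CPM (log2 change -2.79 ± 0.37, 6.94-fold lower, adjusted p = 7.28e-05). Serping1 read 22.2, 24.9 and 32.6 CPM, 3.6-fold lower (log2 change -1.85 ± 0.21, adjusted p = 1.48e-05). C1s1 read 40.2, 44.1 and 46.8 CPM (log2 change -0.81 ± 0.18, adjusted p = 0.00301) and Cfb 2.97, 2.51 and 4.01 CPM (log2 change -1.23 ± 0.20, adjusted p = 4.7e-05). None of these 4 genes overlapped with the unstimulated naive libraries (25.2% of tested genes had no overlap in this direction). C2 changed least, to 7.27, 9.46 and 8.13 CPM (log2 change -0.47 ± 0.13, adjusted p = 0.00762), and without STIA replicate 1 its call was lost (adjusted p = 0.0543). Of the 4 skeletal muscle markers listed, Acta1 moved with this comparison, from 6.30 CPM in unstimulated naive to 65.3 CPM in STIA cells and 25.7 CPM in STIA with OPN, while Des stood at 2.47 and 2.39 CPM in the first pair and Ckm and Myh4 averaged at most 0.0236 CPM there. The list summed to 60.7 to 78.0 CPM in STIA libraries and 8.13 to 9.74 CPM in unstimulated naive ones. Its part in the result was not tested.

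Adding OPN to STIA cells moved no member past the threshold, where 1.15% of tested genes were called higher, 1.02% lower and 2.17% in all. In 4 members every OPN library nevertheless lay above every unstimulated one: C4b with 14.8, 16.9 and 12.7 CPM (log2 change 1.23 ± 0.38, adjusted p = 0.137), Serping1 with 40.6, 44.1 and 38.3 CPM (0.63 ± 0.21, adjusted p = 0.164), C1ra with 44.7, 45.9 and 40.6 CPM (0.46 ± 0.15, adjusted p = 0.148) and C1s1 with 58.4, 59.4 and 51.7 CPM (0.37 ± 0.18, adjusted p = 0.371). Of all tested genes 12.3% had no overlap in this direction. Of the 8 members 3 had an unadjusted p below 0.05. DESeq2 called C1ra and C4b (adjusted p = 0.0435 and 0.0436), limma-voom called none, and a fit of the 2 STIA groups alone called all 4 (adjusted p between 1.23e-05 and 0.0178). C2 stood at 8.29 ± 1.1 CPM without and 8.39 ± 0.888 CPM with OPN.

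The OPN effect itself differed between STIA and naive cells for 2 members, Serping1 and Cfb, where 11.8% of tested genes had a called difference above 0, 10.5% one below 0 and 22.3% one in either direction. Serping1 changed by -0.66 in naive and 0.63 in STIA cells, a difference of 1.29 ± 0.29 (adjusted p = 0.00563). Cfb changed by -0.52 and 0.42, a difference of 0.95 ± 0.28 (adjusted p = 0.0163), and lost its call without STIA replicate 2 (adjusted p = 0.0543) or STIA with OPN replicate 3 (adjusted p = 0.05). For C4b the difference was 1.00 ± 0.49 (adjusted p = 0.173), and 1.48 without OPN replicate 3 of the naive cells (adjusted p = 0.0105). For C1ra, C1s1 and C2 it ran from 0.19 to 0.38 and did not pass the test. With OPN on both sides C4b was lower in STIA than in naive cells by -1.79 ± 0.33 (adjusted p = 0.00087) and C1ra by -0.88 ± 0.15 (adjusted p = 0.000195). Calls for C1s1 (-0.60 ± 0.18, adjusted p = 0.0144) and Serping1 (-0.56 ± 0.20, adjusted p = 0.0423) were less sturdy. Serping1 lost its call without naive OPN replicate 1 or 3 or any 1 of the 3 STIA libraries with OPN, with limma-voom (adjusted p = 0.0559) and when only the groups compared were fitted (adjusted p = 0.168). C1s1 lost it without naive OPN replicate 3 (adjusted p = 0.0662) or STIA with OPN replicate 3 (adjusted p = 0.0582).

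**Figure D3:**
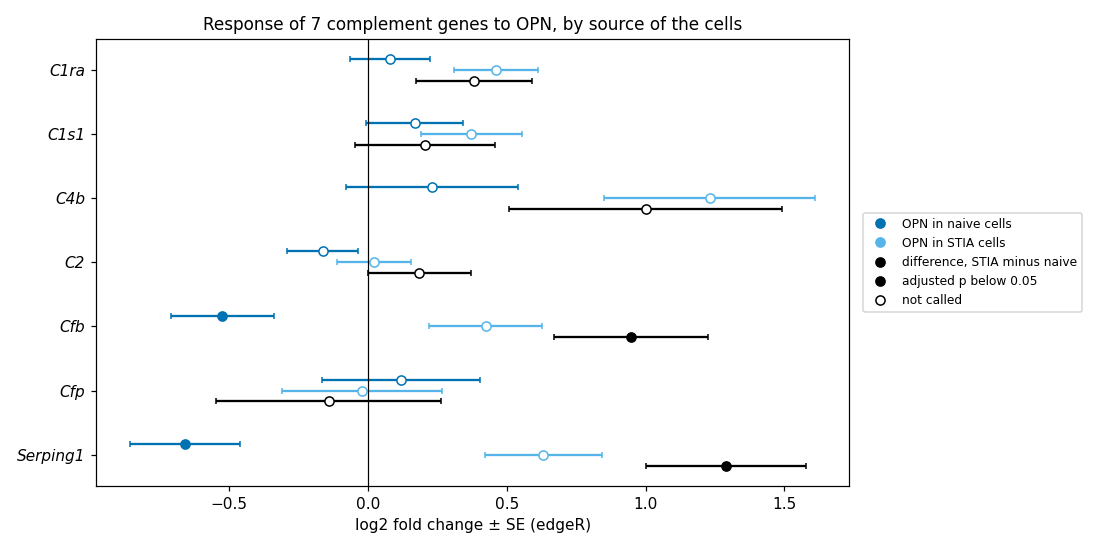
Log2 fold change ± SE with OPN (horizontal axis) in naive cells, in STIA cells, and the difference between them, for 7 complement genes; filled points passed an edgeR adjusted p below 0.05. Serping1 and Cfb lie left of 0 in naive and right of 0 in STIA cells, with filled differences of 1.29 and 0.95.

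Ordered by group mean, C1ra was highest with OPN and without stimulation in naive cells, neighbours that did not differ beyond the spread, followed by both factors, STIA with OPN, STIA and FGF2. Both factors and STIA with OPN did not differ beyond the spread for C1ra (adjusted p = 0.141), nor did STIA with OPN and STIA (adjusted p = 0.148). C1s1 and C4b shared another order: both factors, OPN, unstimulated naive, STIA with OPN, STIA, FGF2, in which the first 3 did not differ from one to the next beyond the spread. Unstimulated naive cells exceeded STIA with OPN for C4b (adjusted p = 0.00523), while for C1s1 this step did not pass the test (adjusted p = 0.0991). FGF2 was the lowest group for the 6 genes it lowered. It was below unstimulated STIA cells for C1ra (adjusted p = 3.16e-08), C1s1 (0.000121), C2 (2.3e-08), C4b (0.00908) and Serping1 (0.000177), where 55.0% of tested genes were called. For Cfb, STIA and FGF2 did not differ beyond the spread (adjusted p = 0.083). For C2 the neighbours STIA and both factors stood at 8.29 and 4.15 CPM (adjusted p = 2.06e-06; 62.3% of tested genes were called between these groups).

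The wider list of 59 complement genes put the 8 in context; 33 passed the filter on low counts. With FGF2, 12 of the 33 rose and 13 fell, where 29.1% and 28.1% of all tested genes did. Fcna, among the 12, averaged 0.678 CPM with FGF2, 0.497 with both factors and at most 0.251 in the other groups. It would have failed the filter without the libraries with FGF2 alone, so its call adds nothing to the 12. Of 6 tested receptors 5 rose: C3ar1 and C5ar1, which bind the small fragments of C3 and C5, C5ar2, Cd93 and Itgb2. Outside FGF2 alone, C3ar1 and C5ar2 averaged at most 0.132 and 0.0633 CPM. Both passed the filter on low counts only through the libraries with FGF2 alone. Their calls against that group therefore add nothing to these counts, nor to the 12 that rose. Itgb2 went from 0.726 ± 0.118 to 15.4 ± 4.61 CPM, Cd93 from 0.307 ± 0.073 to 9.52 ± 3.46 and C3ar1 from 0.0447 ± 0.0389 to 2.91 ± 1.22. All 6, C3ar1 and C5ar2 among them, were lower with both factors than with FGF2 alone, where 31.2% of all tested genes were lower. For C5ar1, Cd93, Itgb2 and C1qbp this was the opposite direction to the 6 members that FGF2 lowered. Itgb2, C3ar1 and C5ar1 are also macrophage genes. Of the 12 macrophage markers listed, the sum was 53.9 to 56.7 CPM with FGF2, 14.3 to 15.5 without stimulation and 21 to 23.1 with both factors. Of 5 tested markers 3 rose with FGF2, Cd14 from 6.02 to 43.8 CPM, Mrc1 from 0.896 to 6.71 and Cd68 from 1.24 to 3.87, and 2 fell, Csf1r from 2.92 to 0.479 and Lyz2 from 3.86 to 0.576 CPM. C1qa and Tyrobp had no count with FGF2 and C1qb, C1qc, Fcgr1, Adgre1 and Ptprc averaged at most 0.0956 CPM there. The part of these markers in the result was not tested. The subunits of C1q, which C1r and C1s need for activation, averaged at most 0.0327 CPM in every group.

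Among the soluble regulators, Serping1, Cfi and Clu fell with FGF2. Cfi, the protease that inactivates C3 and C4 fragments, went from 3.88 ± 0.552 CPM to 0.115 ± 0.0903 with FGF2 and to 0.716 ± 0.218 with both factors, called lower in both. Clu, the gene of clusterin, which restrains the terminal complex, went from 14.3 ± 0.369 to 9.12 ± 4.64 CPM with FGF2 (log2 change -0.65 ± 0.25, adjusted p = 0.0402) and to 27.8 ± 2.9 CPM with both factors (log2 change from FGF2 1.61 ± 0.25, adjusted p = 5.07e-05). Serping1, Cfi and Clu were all higher with both factors than with FGF2 alone. The membrane regulator Cd55, which takes the C3-cleaving enzymes apart, was higher with FGF2, OPN and both factors, at 16.4 ± 1.03, 21.5 ± 0.965, 31.5 ± 2.17 and 37.1 ± 2.09 CPM in that order after the unstimulated cells, and lower in STIA cells at 10.6 ± 1.36 CPM. The lectin-route protease Masp1 and the scavenger lectin Colec12 rose with FGF2 from 303 ± 23.8 to 522 ± 12.8 CPM and from 184 ± 12.8 to 568 ± 202 CPM. C1rl, a relative of C1ra next to it on chromosome 6, followed the direction of C1ra with FGF2 (26.9 ± 1.04 to 13.7 ± 1.04 CPM) and was higher with both factors than in unstimulated cells (36.0 ± 1.91 CPM).

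**Figure D4:**
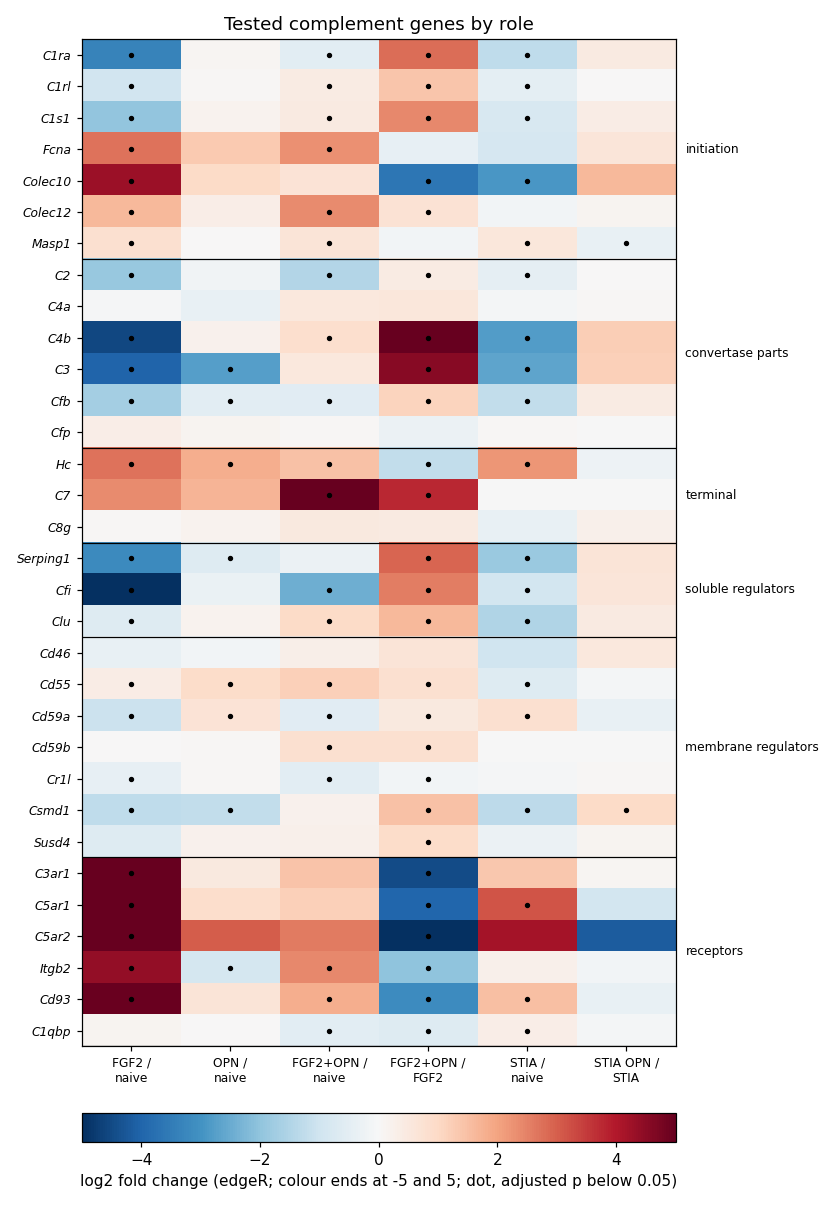
Log2 fold change of tested complement genes (rows, grouped by role) in 6 comparisons (columns); the colour scale ends at -5 and 5, and a dot marks an edgeR adjusted p below 0.05. C3ar1, C5ar1, C5ar2, Itgb2 and Cd93 are red with FGF2 and blue from FGF2 to both factors, and C1ra, C1s1, C2, C4b, C3, Cfb and Serping1 have the opposite colours. C7 passed the low-count filter only through the libraries with both factors, and C3ar1 and C5ar2 only through those with FGF2 alone. Fcna would have failed it without the libraries with FGF2 alone.

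Across the whole list of 33 tested genes, both factors against FGF2 raised 18 and lowered 9 (27.3% and 31.2% of all tested genes), and both factors against unstimulated cells raised 14 and lowered 7 (23.7% and 26.1% of all). C7 is among the higher genes in both comparisons, and C3ar1 and C5ar2 are among those lower than with FGF2. Each passed the filter only through the group where it was high, so these calls add nothing to the counts. OPN alone raised 3 and lowered 5, 8 of 33 where 31.7% of all tested genes changed. In unstimulated STIA cells 6 were higher and 14 lower (18.6% and 18.2% of all), among them Serping1, Cfi and Clu and 4 of 6 tested convertase parts (C2, C3, C4b and Cfb). OPN in STIA cells raised Csmd1 and lowered Masp1. Interferon response genes, a programme known to include several complement genes, were counted beside the list. Of 23 tested, 16 fell and 2 rose with FGF2 (28.1% and 29.1% of all tested genes), 20 rose and 1 fell from FGF2 to both factors (27.3% and 31.2% of all), and 14 fell and none rose in STIA cells (18.2% and 18.6% of all). Of 12 tested genomic neighbours of the chromosome 17 members, 7 rose and none fell with FGF2, against the 29.1% and 28.1% of all tested genes.

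The members' patterns were compared as Pearson correlations of log2 CPM over the 18 libraries, which share groups and so are not independent points; they describe the pattern only. C1s1 and C4b were most alike (0.98), followed by C4b and Serping1 (0.96), C1s1 and Serping1 (0.95) and C1ra with each of C1s1 and Serping1 (0.94), while C2 and C4b reached 0.44. Cfp had correlations between -0.42 and -0.09 with the others. Among all tested genes of at least 5 CPM, the nearest to Serping1 was C1qtnf1 (0.991), that to C1ra was Fam13c (0.986), and Lbp was the nearest to both C4b (0.986) and C1s1 (0.982). The nearest to C2 was Tnn (0.978), to Cfb Capn6 (0.949) and to C7 Pcdhgc3 (0.92). C7 was near 0 outside the libraries with both factors, so its correlations rest mainly on that group. No gene reached more than 0.7 with Cfp (Ints6l).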

How the data were processed

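The authors deposited 1 table of raw counts per gene and library with no normalisation, made with STAR and featureCounts on GRCm38 (mm10) per the submitters' processing notes; the sources used here do not give versions, annotation release, strand setting or how multi-mapping reads were counted. Its Length column, deposited by the authors, holds summed exon length in bases, another kind of number that was used only to give levels per kilobase. Values were checked to be whole; symbols came from GENCODE mouse release 21 (32158 of 32285 identifiers matched), and identifiers without a symbol took 0.0294% of counts. No 2 of the 18 within-group pairs of libraries were identical (chi-square per degree of freedom 4.42 to 40.73).

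Genes kept by filterByExpr (15072) were fitted over all 18 libraries with 1 mean per group in edgeR 4.0.16 (R 4.3.3), with TMM scaling and a robust quasi-likelihood F test, two-sided, Benjamini-Hochberg adjusted over all tested genes within each of 10 comparisons and 15 pairs of groups. Each SE is the size of the log2 fold change over the root of its F value. Alternatives were DESeq2 1.42.0, limma-voom (limma 3.58.1), other scalings, no filter, only the groups compared, a replicate block and leaving out each library. The fit was tested on simulated data. The members, gene lists and naming rule (all 8 members, any tested gene of the complement list, and the genes most correlated with each member) were chosen with earlier results of these data known. For 1 gene of the wider list, which stands in the list's counts, values are not reported here.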

Additional observations from a re-analysis of the deposited data

Results flagged for a closer look

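In naive cells the response to FGF2 differed with and without OPN for 6 members by the interaction term of the edgeR model: C4b (5.16), Serping1 (3.57), C1ra (2.71), C1s1 (2.25), Cfb (1.65) and C2 (0.58), all log2 values and all above 0. Of all tested genes 51.2% had a called interaction, 24.1% above 0 and 27.2% below. The call of C2 was lost without naive OPN replicate 2. Each of the 6 members was lower with FGF2 alone than in unstimulated cells and higher with both factors than with FGF2 alone. These comparisons use the same libraries as the interaction and are not separate evidence for it. The response to OPN differed between STIA and naive cells for Serping1 (1.29) and Cfb (0.95), both lower with OPN in naive cells and above 0, without passing the test, in STIA cells. Of all tested genes 22.3% had a called difference, 11.8% above 0 and 10.5% below. The call of Cfb was lost without STIA replicate 2 or STIA with OPN replicate 3. Single libraries were not tested within groups of 3.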

How the results depend on the processing

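Of 1052 values of single members under the alternatives, 953 kept their direction and their side of the threshold. The counts of members called with FGF2 (6), from FGF2 to both factors (7, C7 among them), for the interaction (6) and in STIA cells (6) stayed within 1.5 times under every alternative run. Both factors against OPN gave 3 members (C7 among them), 5 on library totals alone and 6 with no filter beyond 1 count, and 3 to 5 with a library left out. Both factors against unstimulated cells gave 6 (C7 among them), and 3 to 4 with a library left out. OPN alone gave 2, 1 when only the groups compared were fitted, and 0 to 2 with a library left out; its complement list gave 8 and 5 to 9. OPN in STIA cells gave 0 members, 2 with DESeq2, 4 with no filter and 4 with only its groups; its complement list gave 2, 6 with DESeq2, 1 with limma-voom, 10 with no filter, 10 with only its groups, and 0 to 1 with a library left out. The OPN difference between STIA and naive cells gave 2 members, 4 with no filter and 1 to 3 with a library left out, and a list count of 8, 13 with no filter. STIA against naive cells with OPN gave 4, and 2 to 5.

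Signs turned only for values that passed no test. On library totals alone, both factors against OPN gave 0.086 for Cfb and 0.078 for Cfp. Cfp in STIA cells turned to 0.054 with OPN under limma-voom, to 0.017 under the replicate block, and to -0.065 against naive cells under limma-voom. With a library left out the ranges crossing 0 were -0.22 to 0.18 (Cfb) and -0.25 to 0.17 (Cfp) for both factors against OPN, -0.13 to 0.28 (Cfp) for both factors against unstimulated cells, -0.067 to 0.20 (C1ra), -0.25 to 0.52 (C4b) and -0.025 to 0.23 (Cfp) for OPN, -0.066 to 0.13 (C2) and -0.35 to 0.33 (Cfp) for OPN in STIA cells, and for Cfp -0.47 to 0.21 in the OPN difference, -0.22 to 0.061 in STIA cells with OPN and -0.31 to 0.37 in unstimulated STIA cells. The cause of these shifts was not tested.

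On library totals alone the median log2 change of all genes was 0.136 for both factors against unstimulated cells and 0.118 against OPN, beside -0.01 under TMM for both, and the split of higher and lower calls went from 3573 and 3940 to 5253 and 2414, from 4079 and 4443 to 5433 and 3060, and for FGF2 from 4379 and 4230 to 5233 and 3535. Same-numbered libraries did not deviate together (r from -0.104 to 0.199, 2 of 45 above 0.1). With the replicate number as a block, both factors against unstimulated cells called 4 members in place of 6; the other member counts were unchanged. Depth limits C7, with 1 to 7 counts summed over 3 libraries in each of the other groups.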
